A study of Mus musculus with 33 samples.

Results

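The uptake of apoptotic cells was followed through 9 genes in 9 sorted populations of mouse kidney and spleen: the TAM receptors Axl, Mertk and Tyro3, their ligands Gas6 and Pros1, the phosphatidylserine receptors Timd4, Stab1 and Stab2, and the bridging protein gene Mfge8. They were taken by name from a list of efferocytosis genes, and all 9 were found among the 24054 genes of the count tables. The 33 libraries came from C57BL/6 mice, 10 weeks old, that carried Cre in both copies of Clec9a and YFP in both copies of Rosa26, so every population, also the YFP- ones, came from mice in which both Clec9a copies hold Cre. YFP marks cells with a history of Clec9a expression, and no population came from mice without Cre or YFP.

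The kidney cells were CD45+, Ly6C- and MHCII+. CD64+ kidney cells were split into F4/80low CD11bhi cells (here CD11bhi, YFP+ with 5 libraries and YFP- with 2) and F4/80hi CD11blow cells (here F4/80hi, YFP+ and YFP- with 3 libraries each). Kidney conventional dendritic cells were CD11c+, CD64- and YFP+, with CD24 (written CCD24 in the labels) for type 1 (cDC1, 6 libraries) and CD11b for type 2 (cDC2, 5 libraries). Spleen red pulp macrophages (RPM, 3 libraries) were autofluorescent, F4/80+ and YFP-. Spleen cDC1 (3 libraries) were MHCII+, CD11c+, CD24+, CD205+ and YFP+ without autofluorescence, and spleen cDC2 (3 libraries) were MHCII+, CD11c+, CD11b+ and YFP+. The labels do not say whether libraries are separate mice or pools, so p-values measure the spread between these libraries, which may be technical.

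Efferocytosis is the uptake of dying cells. Phosphatidylserine on the dying cell is bound directly by receptors such as TIM-4, the product of Timd4, and the stabilins, or through soluble bridges: GAS6 and protein S, the product of Pros1, link it to the TAM receptor kinases, and MFG-E8 links it to integrins. AXL is activated by GAS6, whereas MERTK and TYRO3 respond to both ligands. Red pulp macrophages clear aged erythrocytes, and kidney macrophages lie beside tubules and capillaries.

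Gene reads ranged from 8729224 to 23000575 per library. The gates were mirrored in their own genes: Emr1, which encodes F4/80, averaged 2172 ± 287 CPM in F4/80hi YFP+ and 2203 ± 328 in F4/80hi YFP- cells, 193 ± 55.5 in CD11bhi YFP+ cells, 2.68 ± 1.2 in kidney cDC1 and 2180 ± 211 in RPM (SD between libraries; n is given with each group above). CPM (gene reads scaled to a common library total) is after TMM correction. All 7 markers of red pulp macrophages reached a mean of 1 CPM in RPM libraries, and 6 did so in F4/80hi cells and in spleen dendritic cells. Their sum averaged 38124 CPM in RPM and 617 CPM in spleen cDC1, the next highest population. The labels name the 4 CD64+ kidney populations by their gates alone. The summed level of 10 macrophage markers averaged 6083 CPM in CD11bhi YFP+, 5504 CPM in CD11bhi YFP-, 42997 CPM in F4/80hi YFP+, 44106.5 CPM in F4/80hi YFP- and 43818 CPM in RPM libraries, beside 1160 CPM in kidney cDC2. The 7 cDC2 markers, among them Itgam, which encodes the CD11b of the gates, summed to 6430 to 8156 CPM in CD11bhi YFP+ and 6903 to 7052 CPM in CD11bhi YFP- libraries, and so overlapped with kidney cDC2 (6430 to 7616 CPM) and lay above F4/80hi YFP+ libraries (1826 to 2336 CPM). Cd209a, a lectin gene of cDC2, averaged 4136 CPM in CD11bhi YFP+ and 3773 CPM in CD11bhi YFP- cells, beside 3845 CPM in kidney cDC2 and 3.53 CPM in F4/80hi YFP+ cells, and the dendritic cell gene Flt3 203, 194, 404 and 6.59 CPM in the same order. The cDC2 sum was 2774 to 3679 CPM in RPM and 1697 to 2040 CPM in spleen cDC2, so by itself it does not part cDC2 from macrophages. CD11bhi libraries thus held markers of macrophages and of cDC2. Bulk libraries cannot tell a mixture of cells from cells that hold both, so CD11bhi cells are called by their gate. F4/80hi cells and RPM are called macrophages, by their macrophage marker sums. Library names carry a prefix, GS or BS, and what it stands for is not stated: all CD11bhi libraries are BS, all F4/80hi and spleen libraries GS, and the kidney dendritic cells hold both. The 2 CD11bhi YFP- libraries stood apart, with a correlation of log2 CPM of 0.862 against 0.923 or more between libraries of every other group. The 7 libraries of sort code SR17_017, 1 in each GS group, were the only ones with more Y-linked than Xist reads.

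Axl was the highest of the 9 genes, per transcript length, in CD11bhi cells, F4/80hi cells and RPM, and was far lower in dendritic cells, whereas Tyro3 was hardly read anywhere. Of the other receptors, Mertk, Timd4 and Stab2 were highest in RPM and Stab1 in F4/80hi cells. Mean TPM values, which correct for transcript length, place Axl at 197 in CD11bhi YFP+, 228 in CD11bhi YFP-, 385 in F4/80hi YFP+, 375 in F4/80hi YFP- and 949 in RPM libraries. In kidney cDC1, spleen cDC1 and spleen cDC2 the highest of the 9 was Mfge8, at a mean of 10.8, 8.08 and 15.7 TPM, and in kidney cDC2 Mfge8 (24.5 to 44.7 TPM) and Axl (18.6 to 42.6 TPM) overlapped.

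**Figure D1:**
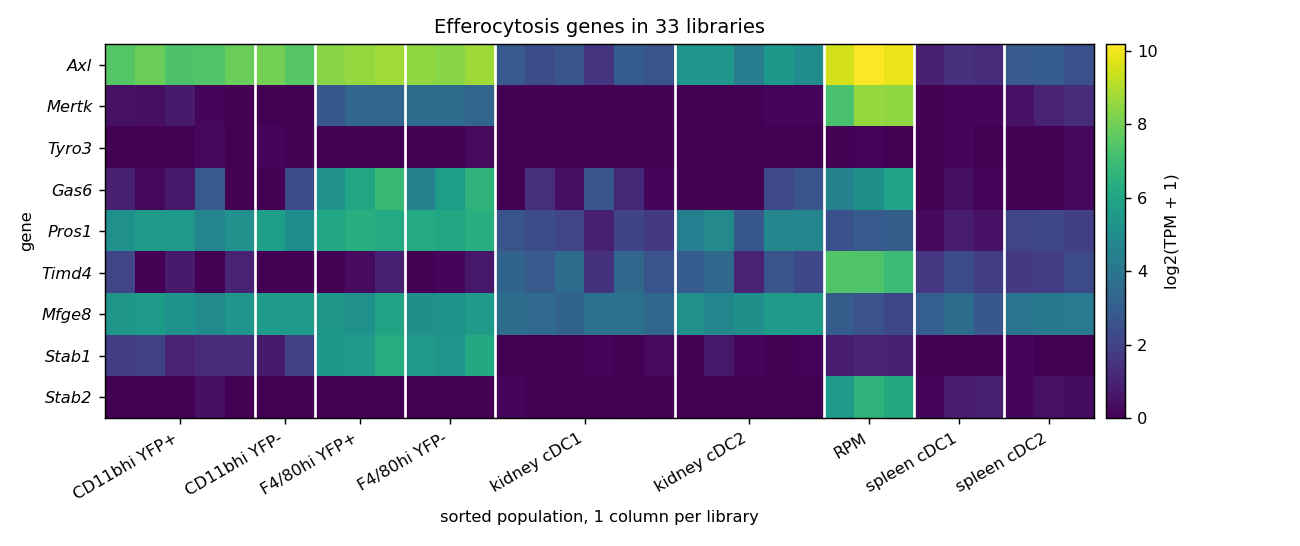
Level of each of the 9 genes (rows) in each of the 33 libraries (columns, grouped by sorted population) as log2(TPM + 1), from dark (0) to bright. Axl is bright in all CD11bhi, F4/80hi and RPM columns, Mertk, Timd4 and Stab2 in the 3 RPM columns, Stab1 in the 6 F4/80hi columns, and the Tyro3 row is dark throughout.

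Axl (ENSMUSG00000002602.16, chromosome 7, 25757273 to 25788705, minus strand, GRCm38) encodes the GAS6 receptor kinase. Among the CD64+ kidney cells, Axl stood at 181, 235, 163, 171 and 235 TPM in CD11bhi YFP+ libraries and at 269 and 188 TPM in CD11bhi YFP- libraries. It stood at 331, 385 and 439 TPM in F4/80hi YFP+ libraries and at 362, 332 and 431 TPM in F4/80hi YFP- libraries. No F4/80hi library was as low as the highest CD11bhi library, while YFP+ and YFP- libraries overlapped within each gate.

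Axl in the kidney dendritic cells had a lowest, median and highest value of 1.93, 5.41 and 6.90 TPM in cDC1, and stood at 40.1, 39.1, 18.6, 42.6 and 30.1 TPM in cDC2. In the spleen it stood at 744, 1166 and 938 TPM in RPM, at 0.93, 1.75 and 1.45 TPM in cDC1 and at 6.61, 6.85 and 4.66 TPM in cDC2. The order from the highest mean was RPM, F4/80hi YFP+, F4/80hi YFP-, CD11bhi YFP-, CD11bhi YFP+, kidney cDC2, spleen cDC2, kidney cDC1 and spleen cDC1. Neighbours whose ranges overlapped were the F4/80hi pair, the CD11bhi pair, and spleen cDC2 with kidney cDC1.

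Mertk (ENSMUSG00000014361.5, chromosome 2, 128698956 to 128802894, plus strand) encodes the TAM kinase used by many tissue macrophages for apoptotic cell uptake. It stood at 152, 386 and 362 TPM in RPM, the lowest of them the SR17_017 library. F4/80hi YFP+ libraries held 5.90, 9.15 and 9.04 TPM and F4/80hi YFP- libraries 11.1, 11.3 and 9.01 TPM. All RPM libraries lay far above all F4/80hi libraries, and the F4/80hi pair overlapped.

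CD11bhi cells, although sorted as CD64+, held almost no Mertk: 0.38, 0.33, 0.68, 0.09 and 0 TPM in YFP+ libraries and 0 reads in both YFP- libraries. The 0 reads allow a level of up to 0.0906 CPM, from 3 reads over both libraries. This and all such limits and intervals cover counting error only. Spleen cDC2 held 0.42, 1.01 and 1.47 TPM, and the remaining dendritic cell libraries held at most 0.14 TPM. In the order of levels RPM stood clear of the F4/80hi pair and that pair clear of spleen cDC2, and all lower neighbours overlapped.

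The promoters of Mertk, Axl, Timd4 and Stab2, the 4 genes highest in RPM, and of Stab1, highest in F4/80hi cells, are shown because their promoter letters can be set beside these patterns. Each window runs from 250 bases before to 50 after the annotated start (RefSeq, GRCm38.p6) and was searched on both strands for the PU.1 and SPI-C core GAGGAA, the MAF half-site TGCTGA, the AP-1 site TGANTCA and the nuclear receptor half-site AGGTCA. PU.1 is a lineage factor of myeloid cells and SPI-C of red pulp macrophages. Capitals mark the matches, read on the strand of the gene, where a match on the other strand appears as its complement read backwards.
Axl promoter, chr7:25788684-25788983, - strand: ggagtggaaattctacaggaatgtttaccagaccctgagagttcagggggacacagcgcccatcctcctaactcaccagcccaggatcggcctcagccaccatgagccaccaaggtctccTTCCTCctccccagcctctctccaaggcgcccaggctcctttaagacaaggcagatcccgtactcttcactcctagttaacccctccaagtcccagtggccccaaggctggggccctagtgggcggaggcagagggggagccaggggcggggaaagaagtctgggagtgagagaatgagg
Mertk promoter, chr2:128698665-128698964, + strand: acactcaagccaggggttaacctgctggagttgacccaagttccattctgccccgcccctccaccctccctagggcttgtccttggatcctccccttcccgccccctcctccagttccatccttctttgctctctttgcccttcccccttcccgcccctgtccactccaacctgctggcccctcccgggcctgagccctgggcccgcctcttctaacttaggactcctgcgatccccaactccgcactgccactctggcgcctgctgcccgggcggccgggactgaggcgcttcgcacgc
The Axl window holds 1 match to GAGGAA, a motif found in 28.1% of 32544 promoters of the same length. The Mertk window holds none of the 4 motifs, which says only that these letters are not in these 300 bases.

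Tyro3 (ENSMUSG00000027298.17, chromosome 2, 119797733 to 119818104, plus strand), the TAM receptor best known from brain, reached at most 0.20 TPM in any library. It was the only gene of the 9 that the filter on low counts removed, so 8 were tested and no fold change is given for it. It had 0 reads in F4/80hi YFP+ cells, kidney cDC1 and kidney cDC2, 8 reads in CD11bhi YFP+, 10 in CD11bhi YFP-, 7 in F4/80hi YFP-, 3 in RPM, and 4 each in spleen cDC1 and spleen cDC2.

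Timd4 (ENSMUSG00000055546.6, chromosome 11, 46810800 to 46844332, plus strand) encodes TIM-4, a phosphatidylserine receptor of several resident macrophages. It stood at 169, 166 and 127 TPM in RPM. No other library exceeded 11.3 TPM. The next levels were those of dendritic cells and not of CD64+ kidney cells: kidney cDC1 had a lowest, median and highest value of 1.79, 7.51 and 11.3 TPM, kidney cDC2 held 6.75, 9.83, 0.94, 5.36 and 3.62 TPM, spleen cDC1 2.07, 4.08 and 2.63 TPM and spleen cDC2 2.28, 2.64 and 3.90 TPM.

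The CD64+ kidney populations, CD11bhi and F4/80hi, were at the bottom of the Timd4 order. Both CD11bhi YFP- libraries had 0 reads, CD11bhi YFP+ libraries held 3.32, 0, 0.67, 0 and 0.99 TPM, F4/80hi YFP+ libraries 0, 0.22 and 0.85 TPM and F4/80hi YFP- libraries 0, 0.09 and 0.57 TPM. From kidney cDC1 downwards each population overlapped with its neighbour.

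Stab2 (ENSMUSG00000035459.18, chromosome 10, 86841198 to 87008025, minus strand) encodes stabilin-2, a scavenger receptor best known from sinusoidal endothelium. It stood at 45.7, 97.9 and 71.6 TPM in RPM, at 0.14, 0.72 and 0.84 TPM in spleen cDC1 and at 0.12, 0.39 and 0.25 TPM in spleen cDC2. F4/80hi YFP+ cells had 0 reads, and no other kidney library exceeded 0.35 TPM.

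Markers of sinusoidal endothelium were looked at beside Stab2. Of the 6, 5 had a read in RPM and 1 reached a mean of 1 CPM: Lyve1 had 0, Oit3 0.0894 CPM, Madcam1 0.498 CPM, and the sum of the list was 5.78 to 22.6 CPM, mostly Fcgr2b (10.8 CPM), which macrophages also express. Stab2 itself averaged 428 ± 122 CPM in RPM. In F4/80hi YFP- cells, with almost no Stab2, the list summed to 720.2 to 783 CPM, all of it Fcgr2b, so there the sum gave the level of that gene alone. The part of these markers in the Stab2 level was not tested.

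Timd4 promoter, chr11:46810549-46810848, + strand: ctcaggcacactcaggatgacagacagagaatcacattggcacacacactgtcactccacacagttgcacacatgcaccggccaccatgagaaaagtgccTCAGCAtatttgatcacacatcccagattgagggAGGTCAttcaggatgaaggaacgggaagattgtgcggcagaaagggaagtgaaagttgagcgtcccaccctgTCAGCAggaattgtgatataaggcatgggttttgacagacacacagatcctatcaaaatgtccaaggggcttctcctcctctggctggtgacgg
Stab2 promoter, chr10:87007893-87008192, - strand: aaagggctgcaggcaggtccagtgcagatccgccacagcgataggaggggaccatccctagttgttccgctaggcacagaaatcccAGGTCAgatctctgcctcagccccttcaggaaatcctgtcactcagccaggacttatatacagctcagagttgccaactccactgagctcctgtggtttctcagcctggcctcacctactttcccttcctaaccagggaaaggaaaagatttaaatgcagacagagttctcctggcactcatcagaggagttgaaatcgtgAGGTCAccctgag
The Timd4 window holds 2 matches to the MAF half-site, found in 19.5% of promoters, and 1 to the nuclear receptor half-site, found in 16.2%. The Stab2 window holds 2 matches to the nuclear receptor half-site. No data of this series bear on binding at these letters.

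**Figure D2:**
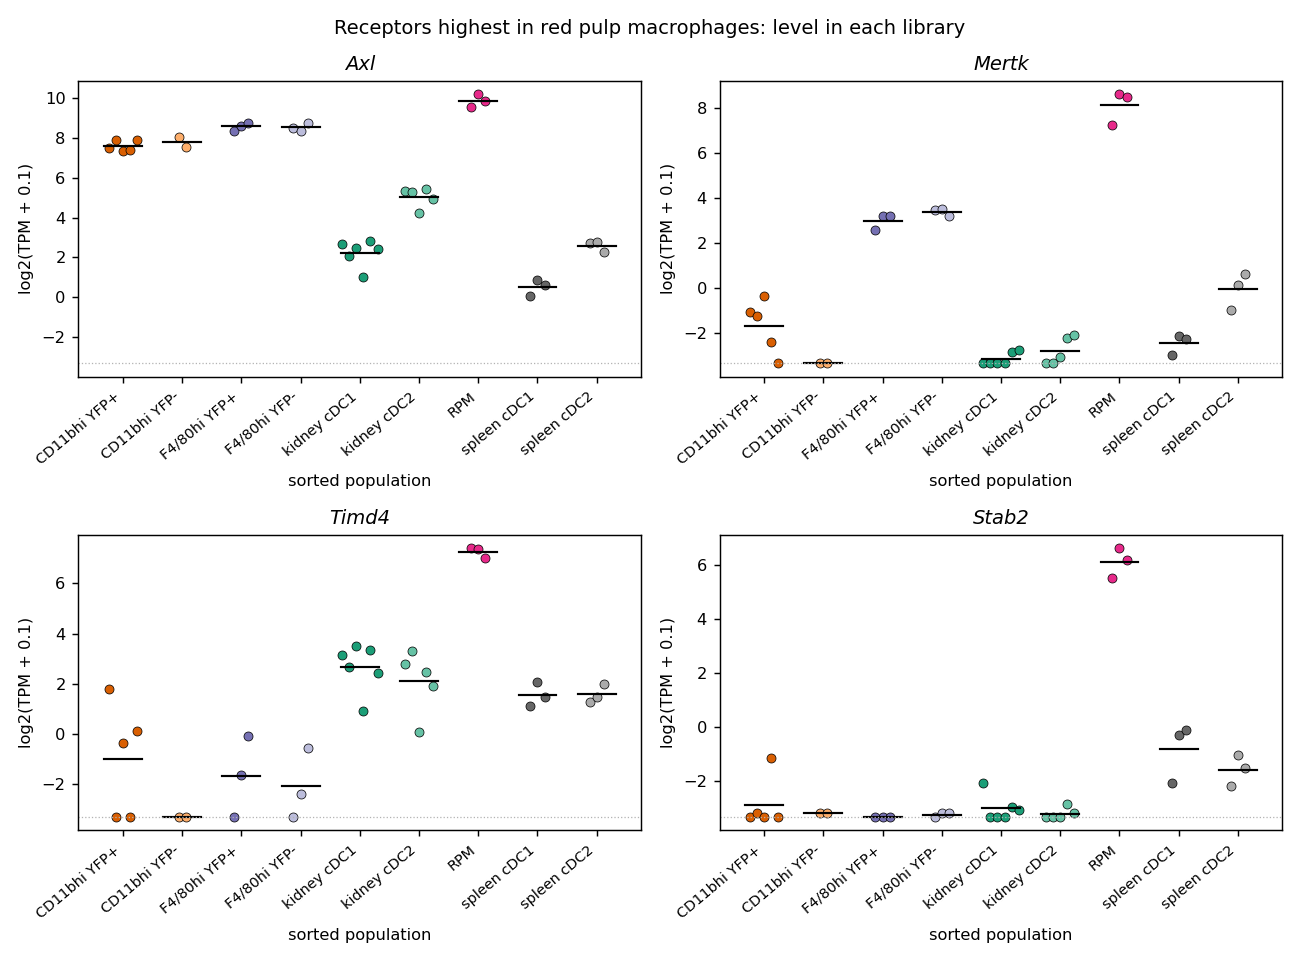
Axl, Mertk, Timd4 and Stab2 in each library as log2(TPM + 0.1), 1 point per library and 1 bar per population mean, with the dotted line at 0 TPM. The 3 RPM points are the highest in every panel, at 744 to 1166 TPM for Axl and 45.7 to 97.9 TPM for Stab2, and the F4/80hi points are second for Axl and Mertk but near the dotted line for Timd4 and Stab2.

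Gas6 (ENSMUSG00000031451.6, chromosome 8, 13465374 to 13494490, minus strand), the vitamin K-dependent ligand of all 3 TAM receptors, was highest in F4/80hi cells and RPM. F4/80hi YFP+ libraries held 34.9, 63.6 and 117 TPM, F4/80hi YFP- libraries 20.5, 51.4 and 97.0 TPM and RPM libraries 21.4, 32.6 and 59.6 TPM, listed in the order of sort codes SR17_017, SR17_036 and SR17_022. All 3 populations overlapped, and in each the SR17_017 library was the lowest and the SR17_022 library the highest. Over the 7 GS groups, Gas6 was lowest in the SR17_017 library in 5 and highest in the SR17_022 library in 5.

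**Figure D3:**
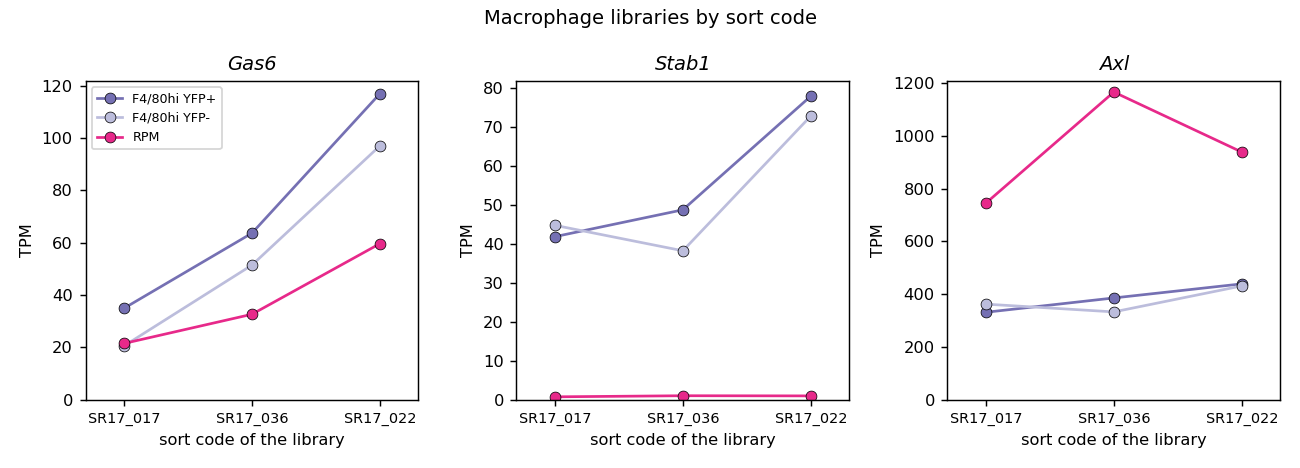
TPM of Gas6, Stab1 and Axl in F4/80hi YFP+, F4/80hi YFP- and RPM libraries, ordered by sort code, with a line joining the libraries of 1 population to guide the eye. Gas6 is lowest in SR17_017 and highest in SR17_022 in all 3 populations (34.9 and 117 TPM in F4/80hi YFP+ libraries), and Axl shows no such shared order.

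In CD11bhi cells and dendritic cells Gas6 was sporadic. CD11bhi YFP+ libraries held 0.92, 0.17, 0.59, 6.30 and 0 TPM and CD11bhi YFP- libraries 0 and 4.06 TPM. Kidney cDC1 had a lowest, median and highest value of 0, 0.765 and 5.60 TPM, kidney cDC2 held 0.03, 0, 0, 3.74 and 5.46 TPM, and no spleen dendritic cell library exceeded 0.35 TPM. Libraries of 1 population differed widely, and all F4/80hi and RPM libraries lay above all of these. The 6.30 TPM is that of CD11bhi YFP+ replicate 4, in which 64.0% of reads lay outside gene counts, against at most 37.2% in the other libraries, and its part in this value was not tested. The Gas6 transcript overlaps the 3' end of Tmem255b on the other strand, and the libraries do not keep the strand, so reads from the overlap cannot be assigned.

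Pros1 (ENSMUSG00000022912.8, chromosome 16, 62854307 to 62929346, plus strand), which encodes protein S, ligand of MERTK and TYRO3, was highest in the CD64+ kidney cells. F4/80hi YFP+ libraries held 67.4, 81.9 and 73.0 TPM and F4/80hi YFP- libraries 76.0, 68.8 and 84.8 TPM. CD11bhi YFP+ libraries held 33.3, 46.4, 44.3, 24.9 and 34.8 TPM and CD11bhi YFP- libraries 52.4 and 29.8 TPM. All F4/80hi libraries lay above all CD11bhi libraries, whereas YFP+ and YFP- overlapped within each gate.

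Pros1 in kidney cDC2 stood at 20.4, 26.8, 6.08, 25.0 and 23.8 TPM, and in kidney cDC1 had a lowest, median and highest value of 0.84, 3.21 and 5.26 TPM. RPM held 4.93, 6.58 and 7.06 TPM, spleen cDC1 0.16, 0.75 and 0.40 TPM and spleen cDC2 3.35, 3.64 and 2.66 TPM. Thus RPM, the population with the most Axl and Mertk, held less Pros1 than every F4/80hi and CD11bhi library. The SR17_017 libraries were the lowest GS libraries in both kidney dendritic cell populations.

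Mfge8 (ENSMUSG00000030605.15, chromosome 7, 79133768 to 79149060, minus strand), the phosphatidylserine bridge to integrins, was found at overlapping levels in CD11bhi cells, F4/80hi cells and kidney cDC2, which lay between 24.5 and 60.0 TPM with each population overlapping the next in the order of means. Kidney cDC1 stayed at 8.55 to 13.0 TPM, spleen cDC1 held 7.15, 11.3 and 5.82 TPM, spleen cDC2 14.1, 16.5 and 16.7 TPM, and RPM 6.97, 5.08 and 3.63 TPM. RPM had the lowest mean of all 9 populations, with a range that overlapped with spleen cDC1.

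Stab1 (ENSMUSG00000042286.13, chromosome 14, 31139013 to 31168641, minus strand), which encodes stabilin-1, a scavenger receptor of some tissue macrophages and endothelia, stood at 41.8, 48.7 and 77.9 TPM in F4/80hi YFP+ and at 44.7, 38.2 and 72.8 TPM in F4/80hi YFP- libraries. CD11bhi YFP+ libraries held 2.65, 2.90, 1.01, 1.3 and 1.29 TPM and CD11bhi YFP- libraries 0.67 and 2.94 TPM. RPM held 0.69, 0.97 and 0.93 TPM, and no dendritic cell library exceeded 0.57 TPM. The F4/80hi libraries thus stood alone. Beneath them the CD11bhi pair overlapped, and RPM overlapped with CD11bhi YFP- but lay below all CD11bhi YFP+ libraries. Stab1 ends within Nt5dc2 on the other strand, so reads of their shared bases cannot be assigned either.
Stab1 promoter, chr14:31168592-31168891, - strand: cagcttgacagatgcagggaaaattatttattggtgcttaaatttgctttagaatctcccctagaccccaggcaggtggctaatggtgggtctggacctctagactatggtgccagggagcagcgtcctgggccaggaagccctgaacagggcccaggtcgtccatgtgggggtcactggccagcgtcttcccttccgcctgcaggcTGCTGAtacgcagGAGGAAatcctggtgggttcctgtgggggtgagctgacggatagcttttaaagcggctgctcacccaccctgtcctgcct
The Stab1 window holds 1 match each to GAGGAA and to the MAF half-site.

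Stabilins are also endothelial genes, and the 13 kidney endothelium markers summed to 80.9 to 157 CPM in F4/80hi YFP+ and to 81.2 to 101 CPM in F4/80hi YFP- libraries. Of the 13, all had reads and 9 reached a mean of 1 CPM in the YFP+ cells, against 12 and 3 in the YFP- cells. Stab1 averaged 332 ± 69.7 CPM and 304 ± 76.9 CPM in the YFP+ and YFP- cells. RPM, with hardly any Stab1, had the highest sum of these markers, 273 to 411 CPM, mostly Pecam1 (329 CPM). Tubule markers, all 12 with reads in both, summed to 288 to 1185 CPM in F4/80hi YFP+ and 458 to 1206 CPM in F4/80hi YFP- libraries, against 21.5 to 33.9 CPM in CD11bhi YFP+ libraries. Fibroblast markers, of interest beside Gas6, summed to at most 10.3 CPM in F4/80hi and 14.3 CPM in RPM libraries. The part of these markers in the levels was not tested.

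**Figure D4:**
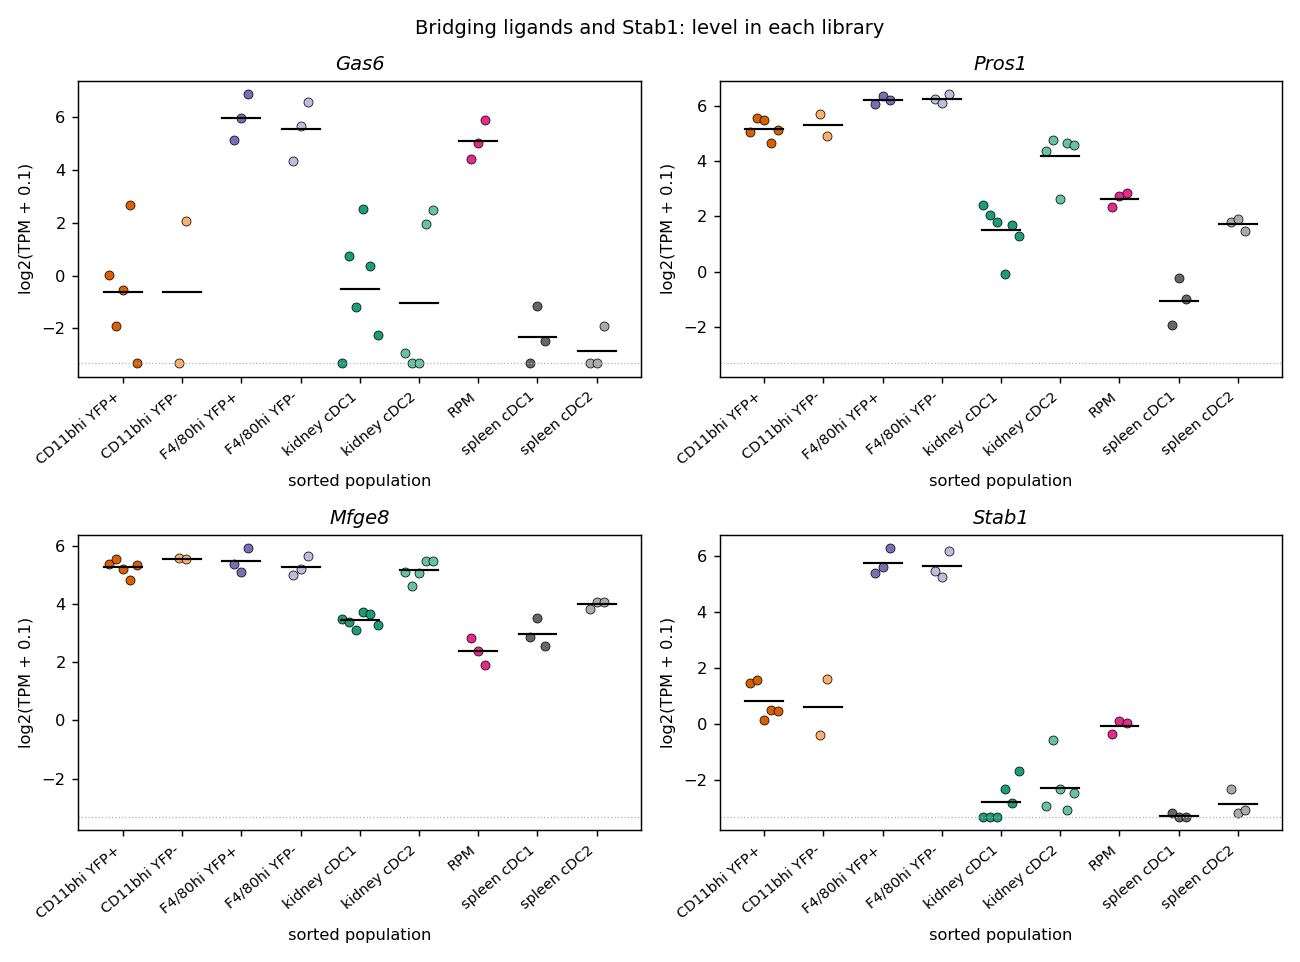
Gas6, Pros1, Mfge8 and Stab1 in each library as log2(TPM + 0.1), 1 point per library and 1 bar per population mean, with the dotted line at 0 TPM. Pros1 and Stab1 are highest in the 6 F4/80hi libraries, Gas6 is high in F4/80hi and RPM libraries, and Mfge8 is lowest in RPM (3.63 to 6.97 TPM).

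Whether a Clec9a history goes with another uptake program was asked by setting YFP+ against YFP- cells of 1 gate. Differences between populations were tested with edgeR's quasi-likelihood test over 14258 genes in 1 model of all libraries, and a gene is called at an adjusted p (Benjamini-Hochberg) under 0.05 and a fold of at least 2. Folds are log2 of the first population over the second, ± SE. Between F4/80hi YFP+ and YFP- cells none of the 9 genes was called, on a background of 0.00701% of all genes, 1 gene (0.00701% higher and 0% lower). At an unadjusted p under 0.05 there were 132 genes, fewer than a share of 0.05 of the 14258 tested. The test may thus be too strict here, and this count shows neither a difference nor the lack of one. DESeq2 called 12. Libraries of 1 sort code were alike here (correlation of deviations from the group mean 0.112 to 0.426), a pairing that the main model leaves out. With sort code as a block, 3 of all genes were called. Axl averaged 1383 ± 38.9 CPM in YFP+ and 1325 ± 83.1 CPM in YFP- cells (log2 fold 0.06 ± 0.22, adjusted p = 1), and Mertk 20.9 ± 3.14 and 26.8 ± 4.78 CPM (log2 fold -0.35 ± 0.45). Gas6 was higher in the YFP+ library of each of the 3 sort codes, yet its log2 fold was 0.37 ± 1.22, and 0.44 with sort code as a block (adjusted p = 1).

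Between CD11bhi YFP+ and YFP- cells, Timd4 and Mertk were called higher, on a background of 5.34% (4.34% higher and 1% lower). Both had 0 reads in the 2 YFP- libraries, against 140 reads of Timd4 and 65 of Mertk in YFP+ libraries, so Timd4 was at least 17-fold and Mertk at least 9.08-fold higher in YFP+ cells, with the floor of 3 reads over the YFP- group. The adjusted p-values were 0.0384 for Timd4 and 0.0233 for Mertk. The libraries overlapped, since 2 of the 5 YFP+ libraries had no Timd4 and 1 had no Mertk, and both calls were lost when either YFP- library was left out, and with a block by sort code, and that of Timd4 also without CD11bhi YFP+ replicate 1. Axl averaged 692 ± 107 CPM in YFP+ and 792 ± 109 CPM in YFP- cells, a log2 fold of -0.19 ± 0.23 that did not pass.

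Between the CD11bhi and F4/80hi gates of the kidney, Stab1 and Pros1 were called, in libraries that differ in prefix as well as gate. The macrophage and cDC2 markers given above also differ between these gates, and their part in the results was not tested. For CD11bhi YFP+ over F4/80hi YFP+ cells, Stab1 and Pros1 fell, on a background of 12.1% (7.71% higher and 4.36% lower): Stab1 averaged 11.2 ± 4.72 against 332 ± 69.7 CPM (log2 fold -5.11 ± 1.06, adjusted p = 0.00105) and Pros1 81.4 ± 18.7 against 170 ± 22.2 CPM (log2 fold -1.49 ± 0.37, adjusted p = 0.00528). Axl averaged 692 ± 107 against 1383 ± 38.9 CPM, and its log2 fold of -0.98 ± 0.26 (adjusted p = 0.00901) lay just under the fold threshold. Stab1 lost its call without kidney cDC2 replicate 2, a library outside the comparison that enters the prefix term, and Pros1 kept its call with every library left out.

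In the same comparison all CD11bhi libraries lay below all F4/80hi libraries for Mertk (0.822 ± 0.692 against 20.9 ± 3.14 CPM) and Gas6 (2.80 ± 4.58 against 127 ± 59.7 CPM), yet neither was called, with fitted log2 folds of 0.03 and -2.12. The model's prefix term is estimated from kidney dendritic cells, which hold little of either gene. Without that term the log2 folds were -4.63 for Mertk (adjusted p = 1.11e-07) and -5.64 for Gas6 (adjusted p = 0.00397). All CD11bhi libraries are BS and all F4/80hi libraries GS. Prefix and gate thus cannot be told apart for any gene except through the prefix term. Stab1 too was low in the kidney dendritic cells behind that term, at 1.07 CPM in cDC2 and 0.358 CPM in cDC1.

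CD11bhi YFP- against F4/80hi YFP- cells showed the same 2 genes lower, on a background of 19.9% (9.81% higher and 10.1% lower). Stab1 averaged 10.6 ± 10.5 against 304 ± 76.9 CPM (log2 fold -5.07 ± 1.2, adjusted p = 0.00278) and Pros1 89.9 ± 25.8 against 170 ± 9.57 CPM (log2 fold -1.35 ± 0.44, adjusted p = 0.0242). Pros1 was not called without CD11bhi YFP- replicate 2 or without the prefix term, and Stab1 not without kidney cDC2 replicate 2 or with DESeq2. Mfge8 was called higher (log2 fold 1.02 ± 0.34, adjusted p = 0.0306), but averaged 66.6 ± 6.17 against 55.5 ± 8.18 CPM with overlapping libraries, and kept its call in 1 of 9 alternatives. Mertk, with 0 against 1058 reads, was at least 296-fold lower in CD11bhi YFP- cells by reads alone. It was not called, and its fitted log2 fold of -7.03 had an SE of 46395. Gas6, at 3.97 ± 5.61 against 98.5 ± 59.5 CPM with all CD11bhi libraries lower, was not called either (log2 fold -1.11 ± 1.95, adjusted p = 0.726). Here too gate and prefix go together.

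F4/80hi YFP+ and CD11bhi YFP+ cells were each set against kidney cDC2, which are YFP+ too. In F4/80hi YFP+ against kidney cDC2, 6 of the 9 genes were called, on a background of 19.4% (8.87% higher and 10.5% lower), and all 6 kept their calls in every alternative run. Stab1 averaged 332 ± 69.7 against 1.07 ± 1.39 CPM (log2 fold 8.41 ± 0.96, adjusted p = 7.34e-08), Mertk 20.9 ± 3.14 against 0.184 ± 0.216 CPM (5.97 ± 0.65, adjusted p = 1.26e-07) and Gas6 127 ± 59.7 against 3.82 ± 5.30 CPM (4.65 ± 1.22, adjusted p = 0.00414). Axl and Pros1 were also higher in the macrophages, with log2 folds of 3.32 ± 0.22 for Axl (adjusted p = 1.51e-12) and 1.90 ± 0.29 for Pros1 (adjusted p = 7.89e-06). Timd4 was lower in the macrophages, at 0.484 ± 0.574 against 8.90 ± 4.98 CPM (log2 fold -3.82 ± 0.95, adjusted p = 0.00275). Mfge8 did not pass (log2 fold -0.21 ± 0.24).

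In CD11bhi YFP+ against the same kidney cDC2 libraries, 4 genes were called, on a background of 2.51% (1.47% higher and 1.05% lower). Axl averaged 692 ± 107 against 138 ± 23.7 CPM (log2 fold 2.34 ± 0.21, adjusted p = 1.83e-08) and was called in every alternative. Stab1 averaged 11.2 ± 4.72 against 1.07 ± 1.39 CPM (log2 fold 3.31 ± 0.75, adjusted p = 0.00801), and Timd4 1.54 ± 2.02 against 8.90 ± 4.98 CPM (-2.77 ± 0.69, adjusted p = 0.0185). These 2 lost their calls when only the 2 groups were fitted (adjusted p = 0.284 and 0.172) and without kidney cDC2 replicate 1 for Stab1 or replicate 2 for Timd4. Mertk, at 0.822 ± 0.692 against 0.184 ± 0.216 CPM, was called with a log2 fold of 6.00 ± 1.37 (adjusted p = 0.0104), lost without the prefix term and without kidney cDC2 replicate 1 or 2. Gas6, Pros1 and Mfge8 did not pass. Both comparisons share the kidney cDC2 libraries.

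Within the kidney dendritic cells, cDC1 held less Axl, Pros1 and Mfge8 than cDC2, on a background of 15.7% (5.48% higher and 10.2% lower), and all 3 calls held in every alternative and with each library left out. Axl averaged 18.6 ± 5.24 against 138 ± 23.7 CPM (log2 fold -2.88 ± 0.18, adjusted p = 1.38e-13), Pros1 7.15 ± 2.66 against 50.8 ± 17.4 CPM (-2.89 ± 0.25, adjusted p = 2.30e-10) and Mfge8 17.8 ± 7.24 against 62.3 ± 19 CPM (-1.72 ± 0.19, adjusted p = 3.77e-08). No cDC1 library reached a cDC2 library for these 3 genes. Timd4, at 11.3 ± 4.93 against 8.90 ± 4.98 CPM, did not pass (log2 fold 0.35 ± 0.56, adjusted p = 0.699).

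Spleen cDC1 against spleen cDC2 gave lower Axl, Pros1 and Mertk, on a background of 14.6% (6.32% higher and 8.3% lower). Axl averaged 4.44 ± 1.13 against 16.4 ± 3.38 CPM (log2 fold -1.89 ± 0.25, adjusted p = 9.62e-07), Pros1 0.883 ± 0.552 against 5.54 ± 0.823 CPM (-2.64 ± 0.41, adjusted p = 1.07e-05) and Mertk 0.199 ± 0.113 against 1.81 ± 0.995 CPM (-3.11 ± 0.79, adjusted p = 0.00529). Mertk was not called with limma on log2(TPM + 1). Mfge8 was at 10.8 ± 3.16 against 17.7 ± 1.49 CPM, a log2 fold of -0.71 ± 0.26 that missed both thresholds (adjusted p = 0.0558).

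Whether the cDC1 and cDC2 split differs between the organs was tested as an interaction, in which none of the 9 genes was called and 5.24% of all genes were (1.67% higher and 3.57% lower). At an unadjusted p under 0.05, Axl and Mfge8 stood out: the kidney split minus the spleen split was -0.99 ± 0.30 on the log2 scale for Axl (adjusted p = 0.0419, under the fold threshold) and -1.02 ± 0.33 for Mfge8 (adjusted p = 0.0628). DESeq2 also called none of the 9.

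Kidney dendritic cells were set against their spleen counterparts. In kidney cDC2 against spleen cDC2, 6 genes were called, on a background of 18.8% (11.9% higher and 6.9% lower). Axl averaged 138 ± 23.7 against 16.4 ± 3.38 CPM (log2 fold 3.07 ± 0.24, adjusted p = 8.20e-11), Pros1 50.8 ± 17.4 against 5.54 ± 0.823 CPM (3.02 ± 0.34, adjusted p = 7.15e-08) and Mfge8 62.3 ± 19 against 17.7 ± 1.49 CPM (2.07 ± 0.26, adjusted p = 4.83e-07). These 3 rose in the kidney in every alternative and with each library left out.

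The other 3 calls rested on few reads. Gas6 had 340 against 3 reads, a ratio of CPM of 49.9 (95% exact Poisson interval 19.7 to 279), with 0 reads in 2 of the 5 kidney libraries, and its adjusted p of 0.0296 became 0.0795 without the prefix term. Mertk (0.184 ± 0.216 against 1.81 ± 0.995 CPM, log2 fold -2.44 ± 0.72, adjusted p = 0.0125) and Stab2 (0.0608 ± 0.104 against 1.07 ± 0.654 CPM, log2 fold -3.84 ± 1.31, adjusted p = 0.0268) were lower in the kidney cells. With sort code as a block, Mertk stayed called (adjusted p = 0.0486), and Gas6 and Stab2 fell under the low-count filter. Gas6 lost its call without any 1 of the 3 spleen libraries or without kidney cDC2 replicate 4 or 5, Mertk without spleen cDC2 replicate 3, and Stab2 without spleen cDC2 replicate 2, kidney cDC2 replicate 3 or kidney cDC1 replicate 1. Red pulp macrophage markers, all 7 with reads in both, summed to 33.97 to 75.3 CPM in kidney cDC2 and 138 to 194 CPM in spleen cDC2. Their part in the Mertk and Stab2 results was not tested.

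In kidney cDC1 against spleen cDC1, 5 genes were called, on a background of 11.1% (6.66% higher and 4.45% lower). Axl averaged 18.6 ± 5.24 against 4.44 ± 1.13 CPM (log2 fold 2.08 ± 0.24, adjusted p = 3.18e-07) and Pros1 7.15 ± 2.66 against 0.883 ± 0.552 CPM (2.77 ± 0.40, adjusted p = 9.15e-06), both in every alternative. Mfge8 (1.05 ± 0.25, adjusted p = 0.00399) and Gas6 (5.25 ± 1.83, adjusted p = 0.0403) were higher and Stab2 lower (-3.69 ± 1.10, adjusted p = 0.0178), with overlapping libraries. Mfge8 kept its call in 3 of 11 alternatives, Gas6 in 5 and Stab2 in 9. Without kidney cDC1 replicate 4 or spleen cDC1 replicate 3, 2 genes were called, and 3 without spleen cDC1 replicate 1 or 2, spleen cDC2 replicate 3, or replicate 2 of either F4/80hi population. The 7 red pulp markers summed to 163 to 219 CPM in kidney cDC1 and 567 to 672 CPM in spleen cDC1, and their part in the Stab2 result was not tested.

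Between the macrophages of the 2 organs, genes differed in both directions. In F4/80hi YFP- cells against RPM, both YFP-, 7 of the 9 genes were called, on a background of 20.1% (11.1% higher and 9.02% lower), and each call held in every alternative and with each library left out. The receptors were lower in the kidney cells: Axl averaged 1325 ± 83.1 against 3404 ± 501 CPM (log2 fold -1.36 ± 0.23, adjusted p = 2.90e-05), Mertk 26.8 ± 4.78 against 756 ± 268 CPM (-4.82 ± 0.51, adjusted p = 8.14e-08) and Timd4 0.320 ± 0.443 against 243 ± 57.1 CPM (-9.43 ± 1.13, adjusted p = 1.97e-07). Stab2 averaged 0.110 ± 0.0731 against 428 ± 122 CPM, from 4 against 18498 reads (log2 fold -11.94 ± 1.25, adjusted p = 2.38e-08). Marginal zone macrophage markers, all 4 with reads in both, summed to 37.0 to 140.0 CPM in F4/80hi YFP- cells and to 991 to 1064 CPM in RPM. Most of the RPM sum was Nr1h3, at a mean of 807 CPM beside 1.89 CPM in F4/80hi YFP- cells, and Marco averaged 116 CPM in RPM. Nr1h3 and Marco are also counted in the pathway lists below. The part of these markers in the Timd4 result was not tested. In bulk samples, fewer cells of a type with a transcript and less of it per cell cannot be told apart.

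The stabilin paralog and 2 bridging genes went the other way. Stab1 averaged 304 ± 76.9 CPM in F4/80hi YFP- cells against 5.74 ± 0.293 CPM in RPM (log2 fold 5.72 ± 0.82, adjusted p = 3.11e-06), Pros1 170 ± 9.57 against 14.1 ± 1.02 CPM (3.59 ± 0.35, adjusted p = 3.38e-09) and Mfge8 55.5 ± 8.18 against 7.75 ± 3.30 CPM (2.83 ± 0.28, adjusted p = 4.16e-09). Gas6 alone of the 8 tested did not pass, at 98.5 ± 59.5 against 68.4 ± 30.6 CPM (log2 fold 0.53 ± 1.22, adjusted p = 0.804). The median log2 fold of the 8 tested genes was -0.42, beside 0.03 over all genes.

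In RPM against spleen cDC2 all 8 tested genes were called, on a background of 30% of genes (15.5% higher and 14.5% lower). Of these, 7 were higher in RPM: the log2 folds were 7.69 ± 0.30 for Axl (adjusted p = 2.07e-17), 8.71 ± 0.62 for Mertk (adjusted p = 6.59e-11), 8.60 ± 1 for Stab2 (adjusted p = 8.20e-08) and 6.09 ± 0.92 for Timd4 (adjusted p = 4.88e-06). Gas6 had 2800 against 3 reads, a ratio of 894 (95% exact Poisson interval 353 to 5007). Stab1 (4.17 ± 1.01) and Pros1 (1.34 ± 0.34) were higher by smaller folds, both lost with limma on log2(TPM + 1). Mfge8 averaged 7.75 ± 3.30 against 17.7 ± 1.49 CPM, lower in RPM (log2 fold -1.18 ± 0.27, adjusted p = 0.000750), and was not called without RPM replicate 3.

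**Figure D5:**
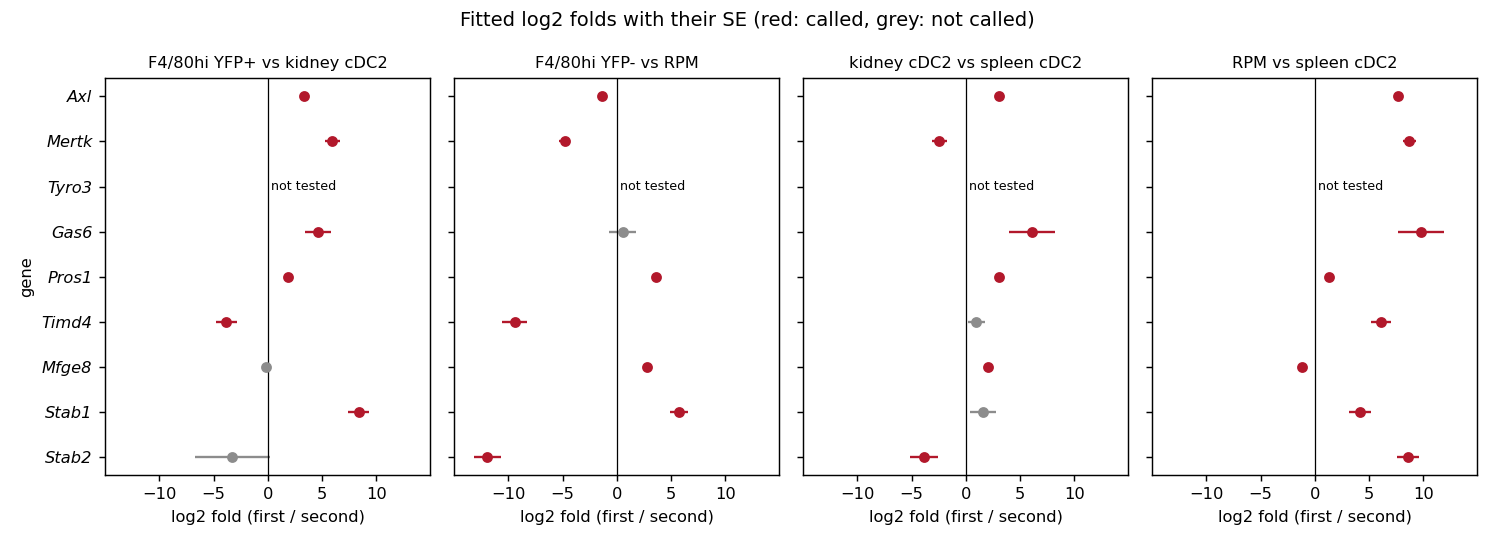
Fitted log2 fold ± SE of each gene (first population over second) in 4 comparisons, red where called and grey where not, with Tyro3 not tested. In the second panel the points lie on both sides of 0, from Stab2 (-11.94) to Stab1 (5.72), and in the first panel 5 called points lie above 0 and Timd4 (-3.82) below it.

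The gap between F4/80hi cells or RPM and the cDC2 of their organ was then compared between the organs, taking F4/80hi YFP- cells for the kidney. As an interaction (kidney gap minus spleen gap) 3 of the 9 genes were called, all lower in the kidney, on a background of 24.2% (10.2% higher and 14% lower): Axl (-4.43 ± 0.33, adjusted p = 3.62e-11), Timd4 (-10.41 ± 1.34, adjusted p = 1.13e-06) and Stab2 (-8.10 ± 2.77, adjusted p = 0.0289). For Timd4 the gap changed sign, since RPM lay above spleen cDC2 and F4/80hi cells below kidney cDC2. Stab2 lost its call without kidney cDC2 replicate 4 and without the SR17_017 libraries. Mertk (-2.38 ± 0.94, adjusted p = 0.0606), Stab1 (4.12 ± 1.60, adjusted p = 0.0527) and Gas6 (-5.54 ± 2.57, adjusted p = 0.106) did not pass, but all 3 were called among GS libraries alone (adjusted p = 0.0140, 0.00278 and 0.0388).

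Other genes of the pathway were counted in 7 lists. In F4/80hi YFP- cells against RPM, where 20.1% of all genes were called (11.1% higher and 9.02% lower), 1 of 21 tested genes of lipid sensing and the response to uptake rose and 10 fell, with a median log2 fold of -0.98 beside 0.03 over all genes. Nr1h3, which encodes the oxysterol receptor LXR-alpha, averaged 1.89 ± 0.543 against 807 ± 158 CPM (log2 fold -8.73, adjusted p = 5.52e-08). The transglutaminase gene Tgm2 averaged 2.45 ± 1.73 against 1081 ± 129 CPM (-8.83), and Rxra, partner of LXR, 40.4 ± 8.63 against 362 ± 60.4 CPM (-3.16). Of 31 other uptake receptors 6 rose and 10 fell: the scavenger receptor gene Marco fell (log2 fold -8.85), and Cd93 (6.52), Trem2 (5.91), a lipid receptor of macrophages, and Cxcl16 (4.92) rose. Of 17 genes of find-me and do-not-eat-me signals 4 rose and 7 fell, with the nucleotide receptor gene P2ry6 (6.33) and the fractalkine receptor gene Cx3cr1 (6.02) higher in the kidney and Pecam1 (-4.59) lower.

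In F4/80hi YFP+ cells against kidney cDC2, where 19.4% of all genes were called (8.87% higher and 10.5% lower), 7 of 12 tested bridging and opsonin genes rose and 3 fell, with a median log2 fold of 4.36 beside 0.02 over all genes. The complement opsonin genes C1qa (log2 fold 8.34) and C1qc (7.95), C4b (8.67) and Apoe (8.46) led them. C1qa, C1qb, C1qc and Apoe are also macrophage markers of the sum by which F4/80hi cells are called macrophages. Their rise repeats that naming and is no separate result. Of 31 other uptake receptors 9 rose and 3 fell, and Msr1 (8.50), Trem2 (7.77) and Cd36 (5.18) were among those that rose. Itgam, on whose product both gates rest, was 1 of the 3 that fell. Of 33 phagosome genes 8 rose and 1 fell, with Lamp2 (2.70), Ctsl (2.3) and Lipa (2.09), lysosomal genes all, at the head. Of 30 genes of the engulfment machinery 5 rose and 2 fell, a share near that of all genes, led by the lipid exporter gene Abca1 (5.56), at a median log2 fold of 0.04.

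In CD11bhi YFP+ cells against kidney cDC2, where 2.51% of all genes were called (1.47% higher and 1.05% lower), 6 of 12 bridging and opsonin genes rose and none fell. The macrophage markers C1qa, C1qb, C1qc and Apoe are among the 6. C1qa averaged 619.6 ± 237 against 11.8 ± 16.2 CPM. Its fitted log2 fold of 7.81 is wider than the gap between these means. It comes from the model with the prefix term, which is estimated from kidney dendritic cells. When CD11bhi YFP+ cells were set against F4/80hi YFP+ cells, where 12.1% of all genes were called (7.71% higher and 4.36% lower), 3 of the same 12 bridging and opsonin genes rose and 1 fell: Fn1 (7.44), Anxa1 (4.52) and Lgals3 (1.44) rose, and Apoe fell to 226 ± 203 against 12589.9 ± 940.4 CPM (-3.63). For Apoe the fitted fold is narrower than the gap between its means. Gate and prefix cannot be told apart here except through the prefix term, whose part in these folds was not tested. In kidney cDC1 against kidney cDC2, where 15.7% of all genes were called (5.48% higher and 10.2% lower), 3 of 31 other uptake receptors rose and 10 fell, with Mrc1 (-7.39) and Lrp1 (-6.04) lower and Cd36 (5.62), a phosphatidylserine and lipid receptor, higher. Itgam (-6.18), which encodes CD11b, is 1 of the 10, and the gates fixed its direction, since cDC2 were sorted on CD11b. Between F4/80hi YFP+ and YFP- cells none of the genes of the 7 lists was called, beside 0.00701% of all genes.

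In kidney against spleen cDC2, where 18.8% of all genes were called (11.9% higher and 6.9% lower), 10 of 31 other uptake receptors rose and 6 fell, with Mrc1 (4.02), Clec12a (3.77), Cd14 (3.52) and Itgb5 (3.28), a subunit of an integrin that binds MFG-E8, higher. Of 15 tested genes of TAM shedding and feedback 2 rose and 3 fell. Socs3, a cytokine signalling inhibitor that TAM receptors can induce, was higher in kidney cDC2 (log2 fold 6.06). So was Vkorc1 (2.34), which recycles the vitamin K needed to make active GAS6 and protein S. Nck2 (-3.45) and Traf3 (-1.41) were lower. Socs3 averaged 2021 CPM in kidney cDC2, 166 CPM in F4/80hi YFP+ cells and 23.4 CPM in RPM, the population with the most Axl. A link of Socs3 to the TAM receptors was not tested.

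Genes whose pattern was most like each member are given as a description, by Pearson's r of log2 CPM over the same 33 libraries, which share sorts and depth, among 9708 genes. Axl was most like Timp2 (0.986), Itgb5 (0.967) and Blnk (0.967). Mertk was most like Vnn3 (0.973), Igf1 (0.956) and Acp2 (0.954), and Stab2 like Cd5l (0.938), Ccr3 (0.936) and Slc16a9 (0.936). For Timd4, with its second level in dendritic cells, the nearest genes reached only 0.818 (Bzw2), 0.811 (Actn1) and 0.803 (Vac14). Gas6 was most like Kcnq1 (0.881), Gpc4 (0.861) and Tmem37 (0.860), Pros1 like Lifr (0.968), Ehd4 (0.955) and Pea15a (0.946), Mfge8 like Mgl2 (0.947), Zbtb16 (0.924) and Xylt1 (0.917), and Stab1 like Sepn1 (0.949), Arrb2 (0.945) and Tmem119 (0.943).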

How the data were processed

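RNA of sorted mouse cells was sequenced in 33 libraries after SMART-seq v4 amplification, per the labels' protocols. STAR, RSEM and the build mm10 are named per the submitters' processing notes, and tool versions are not given in the sources used here. The authors deposited raw read counts per gene, taken without strand, expected counts from RSEM per gene, and TPM, which corrects for transcript length. Reads outside gene counts made up 22.6 to 64.0% of a library. Gene positions are those of GRCm38.

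The main test was edgeR 4.0.16 (R 4.3.3) with its quasi-likelihood test on the deposited counts of all 33 libraries, with terms for group and name prefix, TMM scaling and edgeR's filter on low counts (minimum 10, total 15). It was tested on simulated data. Calls need an adjusted p (Benjamini-Hochberg over 14258 genes) under 0.05 and a log2 fold of at least 1. Alternatives were DESeq2 1.42.0 and its size factors, no low-count filter, rounded expected counts, limma 3.58.1 on log2 of the authors' TPM plus 1 or 0.1, no prefix term, only the groups compared, GS libraries only, sort code as a block, and each library left out. A fit without the SR17_017 libraries was chosen after seeing the data. Figures used matplotlib 3.10.9.

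Sort codes paired libraries (correlation of deviations over 0.1 in each of 3 pairs) for F4/80hi YFP+ and YFP-, kidney and spleen cDC2, and spleen cDC1 and cDC2. Elsewhere at least 1 pair fell short of this limit, which does not show the libraries to be unpaired. RPM and spleen cDC2 gave 0.137, 0.097 and 0.211. The 9 genes and all lists were chosen with earlier results of these data known. All 9 genes are described. Of each list, at most 4 called genes per comparison, those with the largest fold and a mean of at least 10 CPM in 1 group could be named.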

Additional observations from a re-analysis of the deposited data

Results flagged for a closer look

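Each gene was checked in each population of 4 or more libraries, which gave 25 sets with unequal values. In 7 of these sets 1 library stood far from the others. Chance gives about 1 in 20 for normally spread values, and sets with many values at or near 0 are not so spread, so that rate is no measure for them. CD11bhi YFP+ replicate 4 was the highest for 3 genes: Gas6 at 6.30 TPM against 0 to 0.92 in the other libraries, Stab2 at 0.35 TPM against 0 to 0.01, and Tyro3 at 0.17 TPM against 0. This library also had the fewest gene reads of all 33, 8729224, and the largest share of reads outside gene counts, 64.0% against at most 37.2% in the others, and the part of these in the 3 values was not tested. Kidney cDC1 replicate 4 held 5.60 TPM of Gas6 against 0 to 1.60 in the others, and kidney cDC1 replicate 1 held 0.14 TPM of Stab2 against 0 to 0.03. Kidney cDC2 replicate 2 held 0.57 TPM of Stab1 against 0.02 to 0.10, and kidney cDC2 replicate 4 held 0.04 TPM of Stab2 against 0 to 0.01.

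The gap between macrophages and cDC2 differed between kidney and spleen for 3 genes by an interaction term (edgeR, kidney minus spleen, log2 scale): Axl by -4.43 (adjusted p = 3.62e-11), Timd4 by -10.41 (adjusted p = 1.13e-06) and Stab2 by -8.10 (adjusted p = 0.0289). Over all genes 24.2% were called in this interaction, and Stab2 lost its call without kidney cDC2 replicate 4 or without the SR17_017 libraries.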

How the results depend on the processing

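Of 2266 checks of the 52 called folds, 2146 kept direction and call, 120 kept the direction alone, and none reversed. The number of the 9 genes called changed as follows, and the cause was not tested. CD11bhi YFP+ against YFP- (2) gave 0 with limma on either log scale, with only the groups compared and with the replicate block. CD11bhi YFP+ against F4/80hi YFP+ (2) gave 4 without the prefix term and with limma on log2(TPM + 0.1), and 5 with limma on log2(TPM + 1) and with only the groups compared. CD11bhi YFP- against F4/80hi YFP- (3) gave 5 with limma on log2(TPM + 1) and 1 without the SR17_017 libraries. CD11bhi YFP+ against kidney cDC2 (4) gave 1 with only the groups compared and with the block. Kidney against spleen cDC1 (5) gave 2 with limma on log2(TPM + 1), and 3 without the prefix term, with limma on log2(TPM + 0.1), with only the groups compared, with the block and without SR17_017. Kidney against spleen cDC2 (6) gave 3 with limma on log2(TPM + 1) and with only the groups compared. The interaction of the cDC1 and cDC2 split (0) gave 1 with only the groups compared and without SR17_017. The interaction of the macrophage gap (3) gave 7 with limma on log2(TPM + 1), and 6 with limma on log2(TPM + 0.1), GS libraries only, only the groups compared and the block.

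With each library left out in turn, the 9 genes gave 0 to 0 calls for F4/80hi YFP+ against YFP-, 0 to 2 for CD11bhi YFP+ against YFP-, 1 to 3 for both gate comparisons, 6 to 6 for F4/80hi YFP+ and 2 to 4 for CD11bhi YFP+ against kidney cDC2, 3 to 4 for kidney cDC1 against cDC2, 2 to 5 for kidney against spleen cDC1, 4 to 6 for kidney against spleen cDC2, 7 to 7 for F4/80hi YFP- against RPM, 3 to 3 for spleen cDC1 against cDC2, 7 to 8 for RPM against spleen cDC2, and 0 to 1 and 2 to 4 for the interactions of the cDC split and the macrophage gap.

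Over all genes, CD11bhi YFP+ against YFP- gave 762 calls, 1291 with DESeq2, 0 with only the groups compared or the replicate block, and 2682 without CD11bhi YFP- replicate 2. CD11bhi YFP- against F4/80hi YFP- gave 2839, and 1395 with only the groups compared. CD11bhi YFP+ against kidney cDC2 gave 358, and 151 with the block. Kidney against spleen cDC1 gave 1584, 831 without SR17_017 and 998 without kidney cDC1 replicate 4. F4/80hi YFP+ against YFP- gave 1, with 0 to 5 in other edgeR and limma fits and 12 with DESeq2. Kidney against spleen cDC2 gave 2675, 4658 with limma on log2(TPM + 0.1) and 1658 without SR17_017. The interactions gave 747 (1162 with limma on log2(TPM + 1)) for the cDC split and 3449 (2048 without SR17_017) for the macrophage gap. GS libraries alone gave no value for CD11bhi cells, and no block could be fitted between CD11bhi and F4/80hi cells, which share no sort code. Where sort codes fell short of the limit for pairing, the block may be a shared label only. Few reads limit the precision for Tyro3, and for Mertk, Gas6, Timd4 and Stab2 where they are near 0.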
